A study of Mus musculus with 10 samples.

Results

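The comparison set 3 arrays of Eed-null MLL-AF9 leukaemia against 4 arrays of Ezh2-null MLL-AF9 leukaemia, which makes 7 of the 10 arrays of the series. The other 3 were WT leukaemias, whose values stand beside each gene as a description. The question was which genes need the core subunit Eed beyond the catalytic subunit Ezh2, that is, which differ in level between leukaemia without Eed and leukaemia without Ezh2. Arrays were chosen by the genotype in their labels, and no measured value entered the choice.

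All 3 groups carried the same leukaemia. Haematopoietic cells of the C57B/6 background had received the MLL-AF9 fusion gene from a retrovirus that also encodes GFP, and 100000 cells of replated leukaemic colonies were transplanted into each recipient irradiated with 600 cGy. Between 2 and 3 weeks later the recipients received pIpC, a double-stranded RNA mimic that induces interferon and here switched on Cre. Every group, WT included, was therefore exposed to the virus, to irradiation and to pIpC, and live bone marrow cells were sorted for GFP, which marks the fusion, and for YFP, which marks past Cre activity. The labels give the genotypes only as Eed-null, Ezh2-null and WT, without the exons removed, the promoter that drives Cre, the age of the mice or the colonies and donors behind each array. A difference between genotypes and a difference between the colonies that were transplanted cannot be told apart here. The submitters call the arrays of a group biological replicates, and the p-values measure only the spread between these samples.

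Polycomb repressive complex PRC2 places methyl groups on lysine 27 of histone H3 and keeps many developmental genes silent. Its catalytic subunit is either Ezh2 or the related Ezh1, while Eed, which binds the methylated tail and stimulates the enzyme, and Suz12 belong to the core that both forms need. A cell that lacks Ezh2 can therefore keep PRC2 activity through Ezh1, whereas a cell that lacks Eed is expected to have no working complex of either form. MLL-AF9, a fusion of a histone methyltransferase and an elongation factor partner, drives acute myeloid leukaemia through genes such as those of the Hoxa cluster.

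Levels are log2 intensities, and a difference is the Eed-null mean minus the Ezh2-null mean on that scale unless another pair of groups is named. Each of 20564 genes was represented by 1 probe set, and a gene was called changed at a Benjamini-Hochberg adjusted p under 0.05 over all of them (limma, two-sided). The number of arrays limits the precision. Median intensities of the arrays ran from 137 to 144. Correlations between arrays of a group, across genes, were 0.956 to 0.978 in Eed-null, 0.975 to 0.989 in Ezh2-null and 0.959 to 0.978 in WT leukaemia. Eed-null replicate 1 stood farthest out on the first principal component, at 63.4, and WT replicate 3 lay at the other end, at -45.3. In sorted bulk cells, fewer cells of a type and less RNA per cell cannot be told apart.

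The sorted cells carried myeloid markers in each genotype. Mean levels of the 4 primary granule markers ran from 11.18 to 12.57 in Eed-null, from 12.03 to 12.68 in Ezh2-null and from 12.09 to 12.35 in WT arrays. Of 7 neutrophil markers 6 were measured, with mean levels of 12.95 to 13.94 in Eed-null, 13.30 to 13.93 in Ezh2-null and 11.84 to 13.69 in WT arrays. The 5 measured monocyte and macrophage markers averaged 7.90 to 8.58 in Eed-null, 8.21 to 9.28 in Ezh2-null and 8.70 to 9.83 in WT arrays. All 4 erythroid markers and 3 of 4 T and NK cell and of 4 stromal and endothelial markers lay below the median level of all genes. The 4 eosinophil, basophil and mast cell markers averaged 7.55 to 8.52 in Eed-null, against 6.96 to 7.46 in Ezh2-null, and 6.85 to 8.40 in WT. The null groups were separated by Prg2, at 9.76 to 10.89 in Eed-null, against 7.22 to 9.08 in Ezh2-null, while they overlapped in Epx, Mcpt8 and Cpa3. Both measured B cell markers averaged 6.82 to 7.19 in Eed-null, against 6.52 to 6.76 in Ezh2-null, with no overlap. The part of these cell types in the results was not tested.

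The targeted genes were read against the labels, which Eed matched and Ezh2 did not settle. Eed read 8.69, 8.34 and 8.67 in the Eed-null arrays, against 10.79, 10.24, 10.40 and 10.30 in the Ezh2-null arrays. The Eed-null arrays lay well below the others, since WT read 10.20 to 10.65. Eed fell 3.64-fold in Eed-null relative to Ezh2-null leukaemia (log2 -1.86, SE 0.19, adjusted p = 0.00342, limma). A second Eed probe set, dim in every group, differed by 0.21, and with the mean of both probe sets Eed was at -0.83 and no longer passed (limma, adjusted p = 0.0718). Ezh2 read 9.60, 9.71 and 9.49 in Eed-null arrays, against 9.19, 9.21, 9.36 and 8.91 in Ezh2-null arrays and 10.25, 9.35 and 10.44 in WT arrays. WT replicate 2 lay within the Ezh2-null values, and Ezh2-null leukaemia was at -0.84 against WT, which did not pass in limma. The null groups did not overlap, but the difference of 0.43 (95% interval -0.12 to 0.99) did not pass (limma, adjusted p = 0.623). Where the probe sets lie relative to the deleted exons is not known here, and a probe set elsewhere in the gene would not test a deletion.

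In all, 16 genes changed, or 0.0778% of those tested. Of these, 10 rose in Eed-null relative to Ezh2-null leukaemia (0.0486%) and 6 fell (0.0292%), by log2 differences of 1.01 to 4.27 in size. At an unadjusted p under 0.05 there were 1067 higher and 820 lower genes, 5.19% and 3.99% of all. All 16 separated the 3 Eed-null arrays from the 4 Ezh2-null arrays with no overlap, as did 10.5% of all genes. In 13 of the 16 the WT values overlapped those of Ezh2-null and not those of Eed-null. For Gt(ROSA)26Sor and Lrmda they overlapped those of Eed-null and not those of Ezh2-null, and for H2-Q10 they overlapped neither. The comparisons share arrays, and the share of all genes with each of these WT patterns was not counted. The patterns are therefore given only as values side by side.

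**Figure D1:**
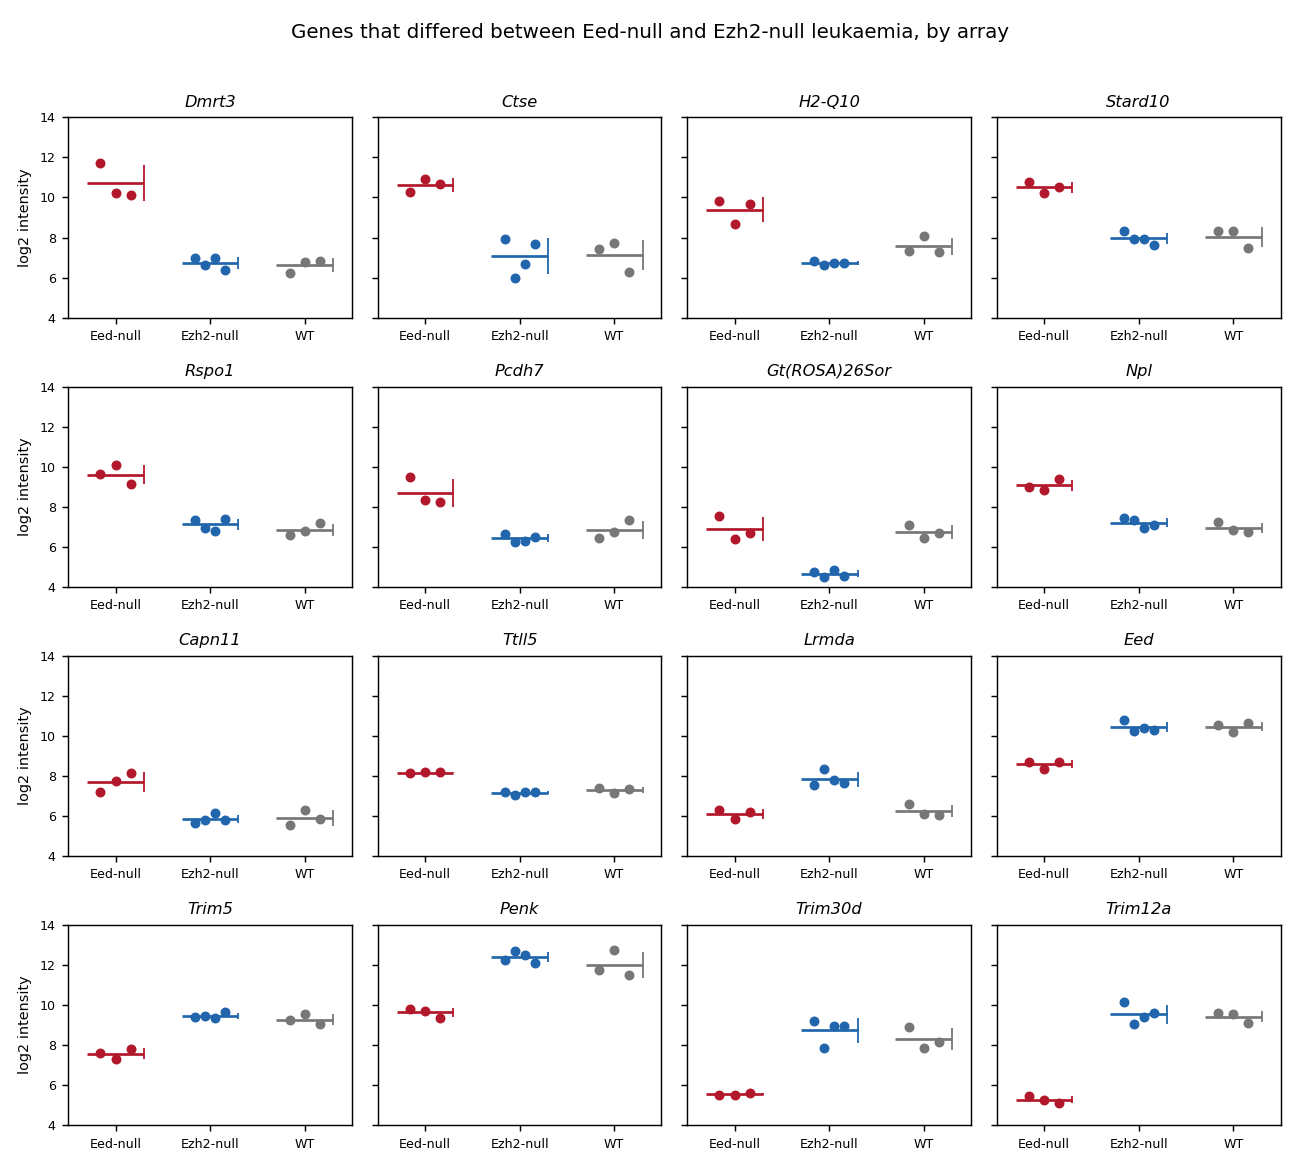
Log2 intensity of the genes that passed, 1 panel per gene, with each array as a point, the group mean as a horizontal bar and the SD as a vertical line, for Eed-null (n = 3), Ezh2-null (n = 4) and WT (n = 3) leukaemia. In Dmrt3 the Eed-null arrays lie at 10.13 to 11.74 and the Ezh2-null arrays at 6.39 to 6.96, and in Trim12a the Eed-null arrays lie at 5.07 to 5.44 and the Ezh2-null arrays at 9.02 to 10.16.

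Among developmental genes, Dmrt3 showed the largest rise. It encodes a transcription factor of the doublesex family that specifies spinal interneurons in mice. Dmrt3 read 11.74, 10.24 and 10.13 in Eed-null arrays, against 6.95, 6.61, 6.96 and 6.39 in Ezh2-null arrays and 6.22, 6.76 and 6.85 in WT arrays. Every Eed-null array was above every other array, by more than 3 log2 units, and Ezh2-null and WT arrays were mixed. The difference was 3.97 (SE 0.36), a 15.7-fold rise (limma, adjusted p = 0.00342). Ezh2-null leukaemia differed from WT by 0.12 at this gene, and Eed-null leukaemia by 4.09. Its 4 probe sets differed by 0.06 to 3.97, so the rise was read mainly from the brightest, and with the mean of all 4 Dmrt3 was at 1.55 and still passed.

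Rspo1 encodes R-spondin 1, a secreted protein that strengthens Wnt signalling. Rspo1 read 9.62, 10.06 and 9.12 in Eed-null arrays, against 7.35, 6.92, 6.79 and 7.37 in Ezh2-null arrays and 6.58, 6.77 and 7.17 in WT arrays. The lowest Eed-null array was above the highest of the other 7. Rspo1 rose 5.62-fold (log2 2.49, SE 0.25, limma, adjusted p = 0.00342). Pcdh7, a protocadherin of cell adhesion, read 9.48, 8.33 and 8.21 in Eed-null arrays, against 6.65, 6.26, 6.26 and 6.50 in Ezh2-null arrays. All WT arrays of Pcdh7, at 6.42, 6.73 and 7.32, were also below the Eed-null arrays. It rose 4.78-fold (log2 2.26, SE 0.31, limma, adjusted p = 0.0243). Its 4 probe sets were at 0.93 to 4.11, and Pcdh7 was not called with their mean (2.20, limma, adjusted p = 0.077) or with the 7 compared arrays alone in the fit (2.26, limma, adjusted p = 0.0582).

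The bases before the start of the genes were read for the members that rose or fell together, since PRC2 is known for its binding at promoters rich in CG. RefSeq promoters of the GRCm38.p6 assembly were at hand for 14275 genes and for 13 of the 16 changed ones. Over 250 bases before the start, the dinucleotide CG, which reads the same on both strands, occurred at least once in 96.8% of all promoters, with a median of 13. A promoter was counted as CG-rich with an observed over expected ratio above 0.6 and more than 50% G and C, as 49.1% of all were. Of the genes that rose, 3 of 8 with an entry were CG-rich, and of those that fell, 2 of 5. These counts describe the letters in the window and say nothing about binding. The promoters of Dmrt3 and Rspo1, the developmental gene and the Wnt pathway gene with the largest rises, are shown in transcript direction with each CG in capitals. Dmrt3 (chr19:25610287-25610536, + strand) held 13 and Rspo1 (chr4:124986180-124986429, + strand) 22. By the rule above Rspo1 was CG-rich, at a ratio of 0.799. Dmrt3 was not, at a ratio of 0.516 and with a count at the median of all promoters.
Dmrt3: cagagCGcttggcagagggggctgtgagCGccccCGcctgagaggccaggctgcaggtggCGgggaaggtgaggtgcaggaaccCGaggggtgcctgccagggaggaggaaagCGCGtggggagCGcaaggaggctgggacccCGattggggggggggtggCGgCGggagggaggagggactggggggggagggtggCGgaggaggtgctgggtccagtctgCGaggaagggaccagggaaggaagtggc
Rspo1: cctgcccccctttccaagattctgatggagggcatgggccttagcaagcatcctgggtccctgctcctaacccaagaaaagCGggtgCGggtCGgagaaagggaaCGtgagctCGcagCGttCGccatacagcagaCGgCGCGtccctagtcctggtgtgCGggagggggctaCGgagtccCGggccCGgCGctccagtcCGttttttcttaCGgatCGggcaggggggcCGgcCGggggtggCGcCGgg

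The remaining genes that rose encode enzymes, a lipid carrier, a histocompatibility protein and a non-coding RNA. Ctse encodes cathepsin E, an aspartic protease of endosomes. It read 10.25, 10.91 and 10.69 in Eed-null arrays, against 7.92, 5.99, 6.69 and 7.66 in Ezh2-null arrays and 7.42, 7.71 and 6.26 in WT arrays. Its Ezh2-null arrays spread over almost 2 log2 units, and still all lay below the Eed-null ones, with a difference of 3.55 (SE 0.47), an 11.7-fold rise (limma, adjusted p = 0.022). Stard10, which encodes a lipid transfer protein for phospholipids, read 10.77, 10.24 and 10.52 in Eed-null arrays, against 8.33, 7.91, 7.95 and 7.65 in Ezh2-null arrays. WT arrays, at 8.31, 8.31 and 7.46, lay among the Ezh2-null arrays. Stard10 rose 5.87-fold (log2 2.55, SE 0.26, limma, adjusted p = 0.00342). Npl, the lyase that breaks down sialic acid, read 8.99, 8.82 and 9.36 in Eed-null arrays, against 7.42, 7.34, 6.92 and 7.08 in Ezh2-null arrays, and rose 3.65-fold (log2 1.87, SE 0.19, limma, adjusted p = 0.00342). WT arrays of Npl, at 6.71 to 7.22, again lay near the Ezh2-null arrays.

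Capn11, a calpain protease gene known for its expression in testis, read 7.17, 7.75 and 8.14 in Eed-null arrays, against 5.63, 5.79, 6.12 and 5.79 in Ezh2-null arrays, and rose 3.61-fold (log2 1.85, SE 0.24, limma, adjusted p = 0.0174). Ttll5, a ligase that adds glutamate chains to tubulin, showed the smallest change of the 16. It read 8.14, 8.17 and 8.17 in Eed-null arrays, against 7.20, 7.04, 7.18 and 7.17 in Ezh2-null arrays, a difference of 1.01 (SE 0.12, limma, adjusted p = 0.0103). The groups were tight, with WT at 7.12 to 7.40, but both other probe sets of Ttll5 were at -0.10 and -0.24, and with the mean of its probe sets Ttll5 was at 0.22 and not called (limma, adjusted p = 0.567).

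H2-Q10 and Gt(ROSA)26Sor had WT levels unlike those of the other genes that rose. H2-Q10, a non-classical class I histocompatibility gene whose product is secreted, read 9.82, 8.68 and 9.66 in Eed-null arrays, against 6.83, 6.61, 6.72 and 6.73 in Ezh2-null arrays, and rose 6.35-fold (log2 2.67, SE 0.28, limma, adjusted p = 0.00342). WT arrays, at 7.32, 8.06 and 7.29, lay between those groups and overlapped neither. Eed-null leukaemia was 1.83 above WT and Ezh2-null leukaemia 0.84 below it, and neither difference passed in this fit (limma, adjusted p = 0.0644 for Eed-null). Gt(ROSA)26Sor is a non-coding RNA made from Rosa26, a site often used to insert transgenes. It read 7.53, 6.37 and 6.70 in Eed-null arrays, against 4.74, 4.51, 4.84 and 4.54 in Ezh2-null arrays and 7.09, 6.42 and 6.66 in WT arrays. Here the Ezh2-null arrays stood apart and the Eed-null arrays were mixed with WT. The difference was 2.21 (SE 0.25, limma, adjusted p = 0.00689), but the Ezh2-null values were dim, and with intensities floored at 32 it was at 1.87 and not called (limma, adjusted p = 0.0805). In the same fit as the first value, Ezh2-null against WT was at -2.07 (limma, adjusted p = 0.0331) and Eed-null against WT at 0.14. Where the YFP reporter had been inserted is not given in the sources used here, and a part of such an insertion in these values was not tested.

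The largest changes among the genes that fell were in the Trim5 group, whose proteins carry RING and B-box domains and, in primates, include a restriction factor for retroviral capsids. Trim12a read 5.44, 5.25 and 5.07 in Eed-null arrays, against 10.16, 9.02, 9.38 and 9.57 in Ezh2-null arrays and 9.58, 9.55 and 9.09 in WT arrays. The Eed-null values lay more than 3 log2 units below every other array. Trim12a fell 19.3-fold (log2 -4.27, SE 0.26, limma, adjusted p = 0.000138), the largest change among the 16. Trim30d read 5.51, 5.49 and 5.59 in Eed-null arrays, against 9.17, 7.82, 8.92 and 8.95 in Ezh2-null arrays and 8.90, 7.84 and 8.13 in WT arrays. Again no Eed-null array reached the lowest of the others, and Trim30d fell 9.09-fold (log2 -3.18, SE 0.33, limma, adjusted p = 0.00342), with a second probe set at -1.94. Trim5 read 7.61, 7.27 and 7.81 in Eed-null arrays, against 9.37, 9.42, 9.35 and 9.65 in Ezh2-null arrays, and fell 3.69-fold (log2 -1.88, SE 0.19, limma, adjusted p = 0.00342). WT arrays of Trim5 lay at 9.02 to 9.54. The Eed-null values of Trim12a and Trim30d were dim, so the size of their folds depends on the background of those probe sets, which is not known here.

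The list of the Trim5 group did not move one way, and it also counts Trim3, a Trim gene outside the Trim5 family. Of 11 measured members, 6 were negative, 3 fell and 0 rose in limma, 4 were lower and 1 higher at an unadjusted p under 0.05, and the median was -0.13 against 0.04 over all genes. Trim30b read 7.83, 7.80 and 7.96 in Eed-null arrays, against 8.52 to 9.50 in Ezh2-null arrays, with a difference of -1.13 that did not pass (limma, adjusted p = 0.201). Trim12c was at 0.38 (95% interval -0.12 to 0.88), and Trim3, the 1 higher member, at 0.80 (95% interval 0.27 to 1.33). Members of the Trim5 family resemble each other in sequence, and a probe set may pick up more than its own gene. The promoters of Trim12a and Trim5 are shown because both genes fell and because they hold the same 191 bases, from base 60 of the Trim12a window and base 1 of the Trim5 window. They hold 1 and 0 CG (capitals), as few as 8.19% of all promoters do, and lie on the - strand at chr7:104315496-104315745 and chr7:104288107-104288356.
Trim12a: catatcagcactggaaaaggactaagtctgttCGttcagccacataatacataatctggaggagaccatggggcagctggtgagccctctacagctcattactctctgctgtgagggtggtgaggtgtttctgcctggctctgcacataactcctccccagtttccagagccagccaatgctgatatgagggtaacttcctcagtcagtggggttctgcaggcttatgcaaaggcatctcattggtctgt
Trim5: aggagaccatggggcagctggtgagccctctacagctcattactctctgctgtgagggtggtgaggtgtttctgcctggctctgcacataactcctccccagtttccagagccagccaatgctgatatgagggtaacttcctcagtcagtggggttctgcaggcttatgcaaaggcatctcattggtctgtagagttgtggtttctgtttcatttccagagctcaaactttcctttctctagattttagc

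Among the genes that fell, 2 others encode a neuropeptide precursor and a protein of pigment cells. Penk, the precursor of the enkephalin opioid peptides, read 9.77, 9.71 and 9.36 in Eed-null arrays, against 12.26, 12.70, 12.51 and 12.11 in Ezh2-null arrays and 11.74, 12.71 and 11.50 in WT arrays. The highest Eed-null array lay below the lowest WT array, and Penk fell 6.87-fold (log2 -2.78, SE 0.27, limma, adjusted p = 0.00342). Lrmda, named for melanocyte differentiation in humans, read 6.27, 5.83 and 6.16 in Eed-null arrays, against 7.52, 8.34, 7.79 and 7.62 in Ezh2-null arrays and 6.59, 6.11 and 6.03 in WT arrays. Its Eed-null arrays were mixed with WT and its Ezh2-null arrays stood above both. The difference was -1.73 (SE 0.22, 3.32-fold lower, limma, adjusted p = 0.0146), with other probe sets at -2.92 and -0.50. Ezh2-null leukaemia differed from WT by 1.57 at Lrmda, which did not pass (limma, adjusted p = 0.0744).

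Leaving out each of the 10 arrays in turn, 11 of the 16 passed every time. Capn11 lost the call without Eed-null replicate 2 or Ezh2-null replicate 1, 2 or 4 (1.79 to 1.84). Ctse lost it without Eed-null replicate 2 or 3, Ezh2-null replicate 3 or WT replicate 1 (3.40 to 3.55), and Lrmda without Eed-null replicate 2 or Ezh2-null replicate 3 (-1.74 to -1.60). Pcdh7 lost it without any 1 Ezh2-null array or WT replicate 2 (2.20 to 2.34), and Ttll5 without Ezh2-null replicate 2, 3 or 4 (0.97 to 1.02). The floor of 32 also ended the calls of Capn11 (1.85), Ctse (3.55), Lrmda (-1.73) and Pcdh7 (2.26). No value of these genes lay under that floor, and their differences stayed the same. The calls were lost through the moderated spread and the adjustment, which draw on all genes. All 16 passed with the mean level of the neutrophil genes as a covariate. The genes just outside the threshold, which were looked up after the values were seen, were Azgp1 at -1.69 and C77626 at -1.25 (limma, adjusted p = 0.054 each), and those just inside were Pcdh7 and Ctse.

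**Figure D2:**
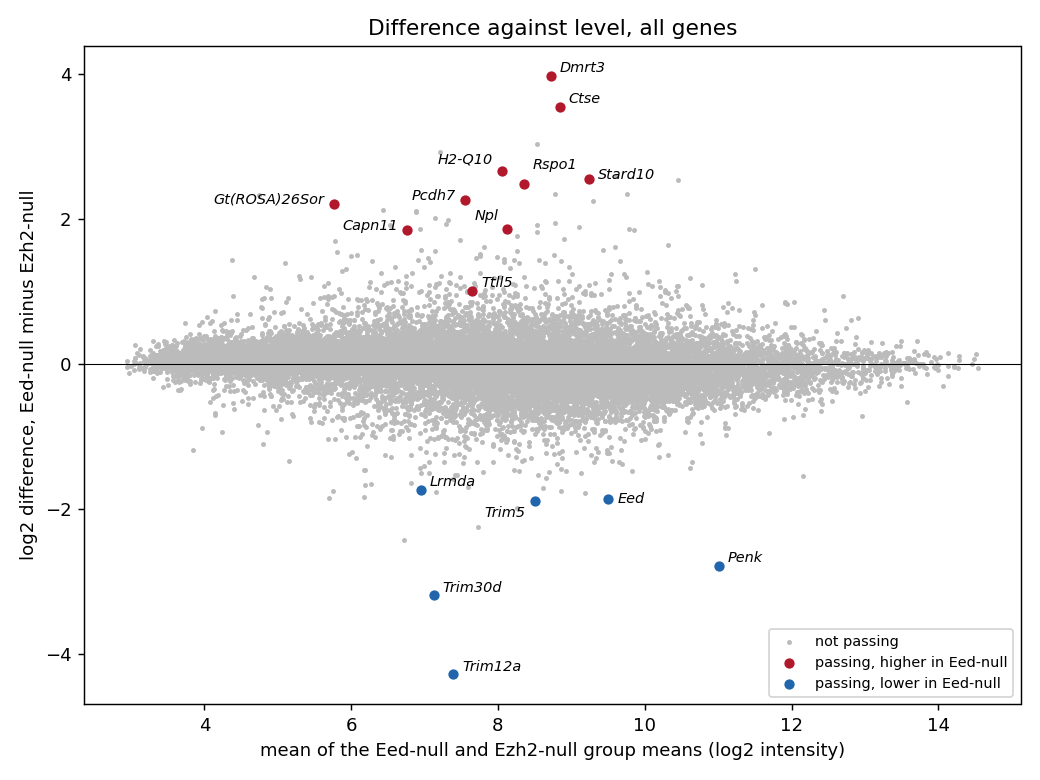
Log2 difference, Eed-null minus Ezh2-null, against the mean of both group means (log2 intensity), with each of 20564 genes as a point and the 16 that passed in colour and named. The named genes lie at 1.01 to 3.97 above the zero line and at -1.73 to -4.27 below it, and the cloud of dim genes at the left leans slightly above zero.

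The lean of dim genes bears on every list below. Over all genes 58.0% of differences were positive, with a median of 0.04. Sorted by mean level into 5 equal bins, from dimmest to brightest, the share of positive differences was 71.5%, 71.5%, 63.1%, 45.8% and 38.1%, with medians of 0.08, 0.09, 0.07, -0.04 and -0.07. At an unadjusted p under 0.05, the same bins held 7.44%, 6.81%, 4.79%, 3.87% and 3.04% higher genes. They held 0.997%, 2.26%, 3.65%, 6.18% and 6.86% lower genes. Over all genes the shares were 5.19% higher and 3.99% lower, and the counts in lists stand against these. Lists of dim or bright genes are given with these shares in view. No detection call was used here, so whether a dim probe set lay above background is not known.

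Positions along the chromosomes of the targeted genes were set beside the changes. Of the 16 genes, 5 lay on chromosome 7, which holds Eed and 7.92% of the 18149 genes that could be placed. Besides Eed itself, Stard10 lay 80 measured genes away, Trim5 121, Trim12a 122 and Trim30d 126. Gt(ROSA)26Sor lay on chromosome 6 with Ezh2, 409 genes away. Within 100 genes on either side of Eed, 18 of 200 were higher and 9 lower at an unadjusted p under 0.05 (13.5% in all, against 9.18% of all genes), with a median difference of 0.04. Within 100 genes of Ezh2 the counts were 17 and 3 of 200, with a median of 0.08. A window of 150 genes, chosen after the positions were seen, held 4 changed genes besides Eed, namely Stard10, Trim5, Trim12a and Trim30d. Whether the groups differ in alleles linked to the targeted genes was not tested, and the labels name the background strain only.

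**Figure D3:**
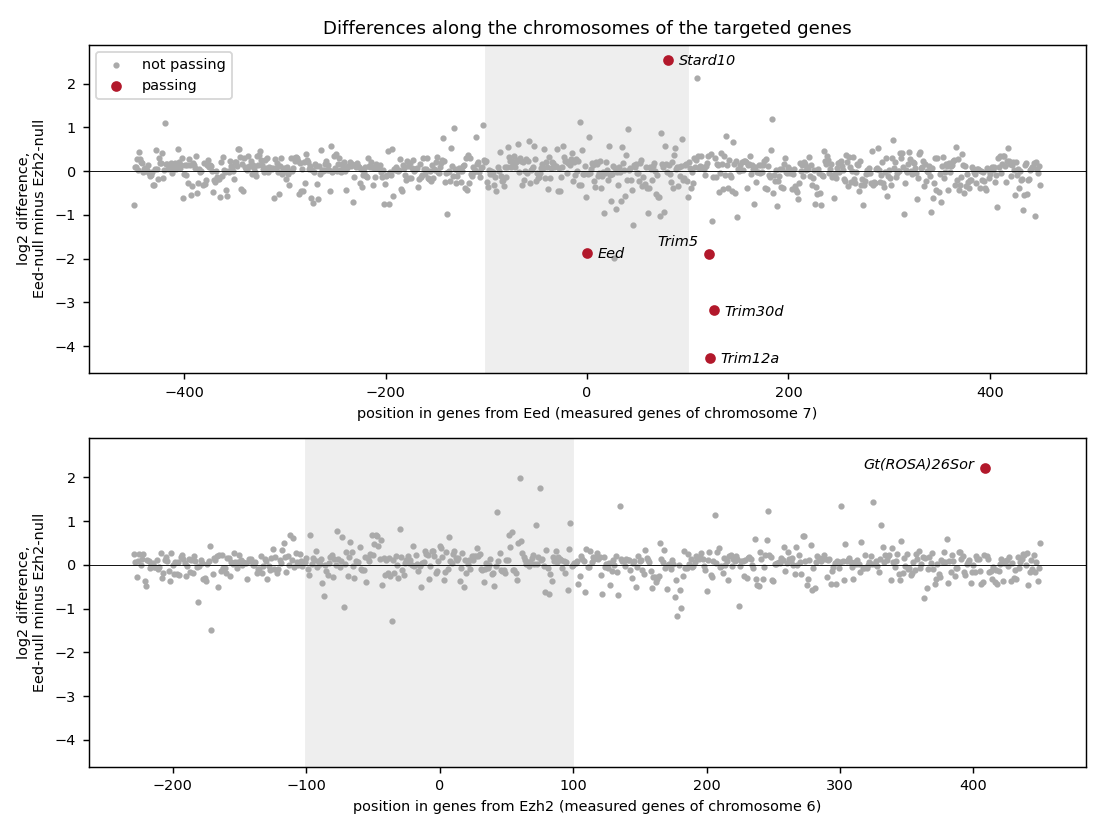
Log2 difference, Eed-null minus Ezh2-null, by position in measured genes from Eed on chromosome 7 (upper panel) and from Ezh2 on chromosome 6 (lower panel), with the genes that passed in colour and the 100 genes on either side shaded. Trim5, Trim12a and Trim30d lie 121 to 126 genes from Eed at -1.88, -4.27 and -3.18, and Stard10 lies 80 genes away at 2.55.

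Among the subunits of the Polycomb complexes Eed alone passed. Of 14 measured PRC2 subunits, 5 were positive and only Eed passed, with a median of -0.06. Ezh1, the alternative catalytic subunit, read 9.49, 9.62 and 9.43 in Eed-null arrays, against 9.25, 8.95, 9.59 and 9.22 in Ezh2-null arrays, with a difference of 0.26 (95% interval -0.15 to 0.67). The groups overlapped. Suz12 was at -0.16 (95% interval -0.53 to 0.21) and the accessory subunit Jarid2, which recruits the complex, at -0.05 (95% interval -0.57 to 0.47). None of these 3 passed (limma, adjusted p = 0.677, 0.79 and 0.959). Other probe sets of Jarid2 were at -0.24 and -0.96 and did not pass where each probe set was tested separately (limma, adjusted p = 0.773 and 0.408), so the size of the Jarid2 difference depends on the probe set.

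Of 23 measured subunits of the partner complex PRC1, 14 were positive and 0 passed in limma, with 0 higher and 2 lower at an unadjusted p under 0.05 and a median of 0.10. Those 2 were Bcor, the corepressor of a PRC1 variant, at -0.60, and its relative Bcorl1 at -0.91 (limma, adjusted p = 0.304 and 0.325). Bcor read 11.06, 10.81 and 10.91 in Eed-null arrays, against 11.58, 11.45, 11.41 and 11.66 in Ezh2-null arrays and 10.999, 10.61 and 11.09 in WT arrays. Its Ezh2-null arrays were the high ones, and the Eed-null arrays were mixed with WT. Bmi1, a PRC1 subunit known for stem cell self-renewal, read 9.76, 10.12 and 10.08 in Eed-null arrays, against 10.28, 10.18, 10.57 and 10.53 in Ezh2-null arrays and 8.62, 8.15 and 8.54 in WT arrays. Both null groups lay above WT, by 1.55 in Eed-null and 1.96 in Ezh2-null leukaemia, while the difference between them was -0.41 (95% interval -0.82 to 0.01, limma, adjusted p = 0.548).

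The other genes called in Ezh2-null against WT leukaemia, besides Gt(ROSA)26Sor, had every array of both null groups above every WT array. Bmpr1a, which encodes a BMP receptor of type I, read 10.93, 9.89 and 9.70 in Eed-null arrays, against 9.35, 9.88, 9.73 and 10.24 in Ezh2-null arrays and 6.64 to 7.37 in WT arrays, a difference between the null groups of 0.37 (95% interval -0.34 to 1.09). Hebp1, a haem-binding protein gene, read 9.17, 9.72 and 8.82 in Eed-null arrays, against 9.78, 10.02, 10.14 and 9.99 in Ezh2-null arrays and 6.66, 6.41 and 7.66 in WT arrays, a difference between the null groups of -0.74 (95% interval -1.42 to -0.07). Tcf24, a helix-loop-helix factor gene, read 8.76, 8.53 and 8.08 in Eed-null arrays, against 9.18, 10.21, 9.11 and 10.17 in Ezh2-null arrays and 7.23, 7.19 and 6.45 in WT arrays, a difference between the null groups of -1.21 (95% interval -1.95 to -0.47). None of the 3 passed (limma, adjusted p = 0.737, 0.516 and 0.343). In Hebp1 and Tcf24 every Eed-null array was below every Ezh2-null array. Counted against WT, 27 genes passed in Eed-null leukaemia (0.131%) and 5 in Ezh2-null leukaemia (0.0243%), and of the 16 genes described above 12 passed in Eed-null and 1 in Ezh2-null leukaemia against WT. Those comparisons use the same WT arrays.

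Developmental regulators known as Polycomb targets were the list in which Dmrt3 stood. Of 77 measured, 63 were positive, Dmrt3 rose and 0 fell in limma, with a median of 0.12 against 0.04 over all genes. At an unadjusted p under 0.05, 9 were higher and 0 lower, against 5.19% and 3.99% of all genes. Of these 77, 61 lay in the dimmest 2 bins, in which 71.5% of all genes were positive. In those bins 7.44% and 6.81% of all genes were higher and 0.997% and 2.26% lower at the same p. Lhx2, a LIM homeobox factor of forebrain and haematopoietic precursors, read 7.93, 7.96 and 7.12 in Eed-null arrays, against 6.48, 6.23, 6.10 and 6.49 in Ezh2-null arrays and 6.45 to 6.73 in WT arrays. Its groups did not overlap, and its difference of 1.34 lay just outside the threshold (limma, adjusted p = 0.0601). Otx1, a head homeobox gene, was at 0.43 and did not pass (limma, adjusted p = 0.258). The list's mean level was 6.14, 6.01 and 6.03 in Eed-null arrays, against 5.80, 5.96, 5.85 and 5.88 in Ezh2-null arrays and 5.77, 6.04 and 5.86 in WT arrays.

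Hox genes were read in 2 lists. Of 25 measured genes of clusters B, C and D, 18 were positive and 0 passed in limma, with 3 higher and 0 lower at an unadjusted p under 0.05 and a median of 0.14. Of these 25, 16 lay in the dimmest 2 bins, in which 71.5% of all genes were positive. In those bins 7.44% and 6.81% of all genes were higher and 0.997% and 2.26% lower at the same p. Hoxc4 read 5.36, 6.76 and 5.60 in Eed-null arrays, against 4.88 to 5.32 in Ezh2-null arrays (difference 0.84), and Hoxc9 7.84, 8.39 and 8.73, against 7.54 to 7.78 (difference 0.61). Neither Hox gene passed (limma, adjusted p = 0.442 and 0.449), and Eed-null replicate 2 was the high array of Hoxc4. The 26 Hoxa genes and other targets of MLL-AF9 held 14 positive members, 0 that passed in limma, 3 higher and 2 lower at an unadjusted p under 0.05 and a median of 0.06. Hoxa11, at the 5' end of its cluster, read 7.53, 9.27 and 8.17 in Eed-null arrays, against 6.63, 5.88, 6.31 and 6.50 in Ezh2-null arrays and 6.33 to 7.01 in WT arrays. The Eed-null arrays were the highest, yet the difference of 1.99 (SE 0.36) did not pass (limma, adjusted p = 0.1). Bcl2, the survival gene, was at 0.86 and Cpeb2, an RNA-binding protein gene, at -0.89, without passing (limma, adjusted p = 0.442 and 0.385).

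Cdkn2a, the cell cycle inhibitor locus that Polycomb complexes silence in many cells, read 7.07, 7.95 and 7.13 in Eed-null arrays, against 6.66, 7.24, 8.26 and 7.14 in Ezh2-null arrays. The arrays were fully mixed, and the difference was 0.06 (95% interval -0.71 to 0.82, limma, adjusted p = 0.969). Of the 7 measured inhibitors of cyclin-dependent kinases, 3 were positive and 0 passed in limma, with 0 in either direction at an unadjusted p under 0.05. Of 34 imprinted genes, 22 were positive and 0 passed, with 1 higher at an unadjusted p under 0.05 and a median of 0.08. That gene was the growth factor gene Igf2, at 7.50, 6.49 and 7.39 in Eed-null arrays, against 6.23 to 6.69 in Ezh2-null arrays (limma, adjusted p = 0.457).

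The mean level of class I antigen presentation genes, with H2-Q10, H2-Q7 and H2-Q8 counted in, was higher on every Eed-null array than on every Ezh2-null array. The mean level of the 23 measured was 10.51, 10.47 and 10.50 in Eed-null arrays, against 10.27, 9.79, 10.10 and 9.98 in Ezh2-null arrays and 10.03, 9.93 and 9.80 in WT arrays. Of these 23, 17 were positive, H2-Q10 rose and 0 fell in limma, 7 were higher and 0 lower at an unadjusted p under 0.05, and 8 were higher with no overlap, against 6.81% of all genes. None was lower with no overlap, against 3.74% of all genes. The median was 0.22, and 0.14 without Ezh2-null replicate 2. H2-Q7, a class I gene close to H2-Q10 in the same cluster, read 12.08, 11.50 and 11.59 in Eed-null arrays, against 10.40, 8.62, 8.81 and 8.94 in Ezh2-null arrays and 6.94 to 8.65 in WT arrays. H2-Q8 read 11.47, 10.25 and 11.06 in Eed-null arrays, against 9.36, 7.81, 8.74 and 8.39 in Ezh2-null arrays. Ezh2-null replicate 1 was the highest of its group in both. Neither gene passed, at differences of 2.53 and 2.35 (limma, adjusted p = 0.119 and 0.105). H2-K1, the classical class I gene, was at 0.94 (limma, adjusted p = 0.311). The H2-Q genes are near copies of each other, so RNA of one member may bind another's probe set, and H2-Q10, H2-Q7 and H2-Q8 are uncertain as separate genes. At differences of 2.67, 2.53 and 2.35, against a list median of 0.22, they weigh heavily in the mean level of the list. Its separation between the null groups is therefore not a result about the list without them.

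Of 13 measured class II antigen presentation genes, 3 were positive and 0 passed in limma, with 0 in either direction at an unadjusted p under 0.05. Their median was -0.60, but it was -0.25 without Eed-null replicate 1 and -0.22 without Eed-null replicate 3. H2-DMa, which loads peptides on class II molecules, read 7.48, 9.13 and 8.87 in Eed-null arrays, against 9.07 to 9.42 in Ezh2-null arrays, with replicate 1 far below the other Eed-null arrays. The mean level of the list was 7.997, 8.59 and 8.22 in Eed-null arrays, against 9.05, 8.37, 8.83 and 8.78 in Ezh2-null arrays. The monocyte and macrophage list, whose cells carry class II, moved beside it, at 7.85, 8.46 and 8.28 in Eed-null arrays, against 8.78, 8.13, 8.46 and 8.60 in Ezh2-null arrays, and its part in the class II values was not tested.

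**Figure D4:**
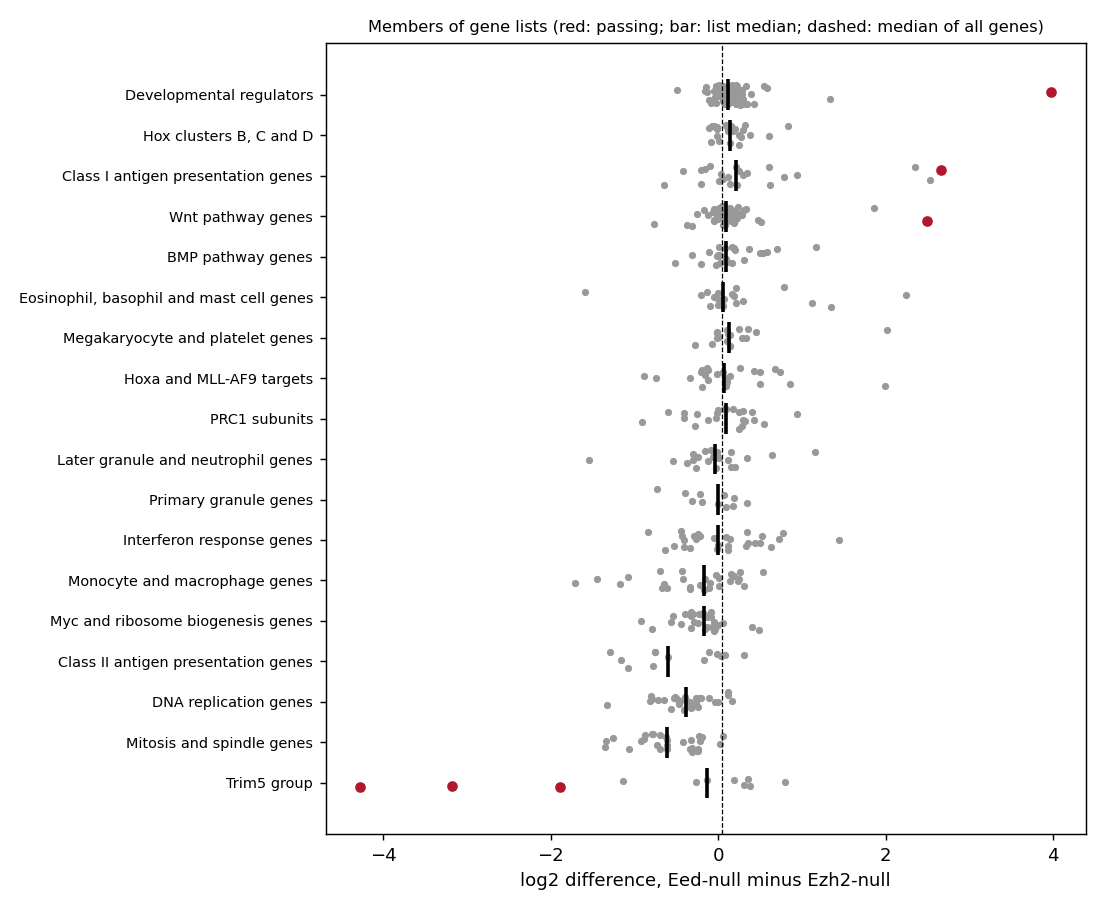
Log2 differences, Eed-null minus Ezh2-null, of the members of 18 gene lists, with each gene as a point, the genes that passed in colour, the list median as a black bar and the median of all genes (0.04) as a dashed line. Mitosis and spindle genes have their median at -0.61 and class I antigen presentation genes at 0.22, and Trim12a, Trim30d and Trim5 stand out at the left of the Trim5 group.

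In the Wnt and BMP pathways Rspo1 alone passed. Of 46 measured Wnt pathway genes, 34 (73.9%) were positive, Rspo1 rose and 0 fell in limma, with a median of 0.09. At an unadjusted p under 0.05, 3 were higher and 1 lower, against 5.19% and 3.99% of all genes. The dimmest 2 bins, in which 71.5% of all genes were positive, held 22 of the 46. Tcf7l2, a nuclear effector of the pathway, read 11.47, 10.23 and 10.45 in Eed-null arrays, against 9.76, 6.91, 8.78 and 9.96 in Ezh2-null arrays. The Ezh2-null arrays were spread over 3 log2 units, and the difference of 1.86 (SE 0.66) did not pass (limma, adjusted p = 0.458). The co-receptor gene Lrp5 was at 0.51 and the receptor gene Fzd5 at -0.76, without passing (limma, adjusted p = 0.506 and 0.52). Of 25 measured BMP pathway genes, 18 (72%) were positive and 0 passed, with a median of 0.09, and 12 lay in the dimmest 2 bins. At an unadjusted p under 0.05, 3 were higher and 1 lower, against the same shares of all genes. Bmpr2, the type II receptor that pairs with Bmpr1a, read 10.28, 10.25 and 9.76 in Eed-null arrays, against 9.42, 8.75, 8.66 and 8.90 in Ezh2-null arrays and 7.80 to 8.62 in WT arrays. The null groups did not overlap, and the difference was 1.16 (limma, adjusted p = 0.219). The target gene Id1 was at -0.51 and Id4 at 0.31, also without passing (limma, adjusted p = 0.449 and 0.311).

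Mitosis and spindle genes were the list with the most negative median. Of 30 measured, 28 were negative and 0 passed in limma, while 13 were lower and 0 higher at an unadjusted p under 0.05, against 3.99% of all genes. The median was -0.61, and -0.29 without Eed-null replicate 3. The mean level of the list was 9.35, 9.56 and 8.75 in Eed-null arrays, against 9.45, 10.01, 9.99 and 9.71 in Ezh2-null arrays and 9.92, 9.67 and 10.04 in WT arrays. Eed-null replicate 3 was the lowest, and Eed-null replicate 2 overlapped Ezh2-null replicate 1. Kif23, a kinesin of cytokinesis, read 10.30, 10.10 and 9.52 in Eed-null arrays, against 11.005, 11.38, 11.62 and 11.29 in Ezh2-null arrays and 11.27 to 11.82 in WT arrays, a difference of -1.35 (limma, adjusted p = 0.0884). Ttk, the spindle checkpoint kinase, was at -1.07 and Ccna2, cyclin A2, at -1.25, and neither passed (limma, adjusted p = 0.239 and 0.243). These 3, which were named for their small p, are among 5 of the 30 that were lower with no overlap, against 3.74% of all genes. In level, 29 of the 30 genes lay in the brightest 2 bins, in which most differences were negative.

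DNA replication genes were also mostly negative. Of 30 measured, 26 were negative and 0 passed in limma, with 0 higher and 6 lower at an unadjusted p under 0.05 and a median of -0.38. It was -0.21 without Eed-null replicate 3 and -0.23 without Ezh2-null replicate 2. The mean level of the list was 9.39, 9.86 and 9.19 in Eed-null arrays, against 9.64, 10.18, 9.94 and 9.70 in Ezh2-null arrays, so the null groups overlapped. The clamp loader genes Rfc4 and Rfc3 were at -0.80 and -1.33 and the primase gene Prim1 at -0.81 (limma, adjusted p = 0.325, 0.39 and 0.424). Of 30 genes of Myc and ribosome biogenesis, 27 were negative and 0 passed, with 2 lower at an unadjusted p under 0.05. Their median was -0.17, but -0.06 without Eed-null replicate 1, -0.07 without Ezh2-null replicate 2, -0.31 without Eed-null replicate 2 and -0.26 without Ezh2-null replicate 4. In the DNA replication list and in the Myc list alike, 27 of 30 genes lay in the brightest 2 bins. Of all genes in those bins, 45.8% and 38.1% were positive, and 6.18% and 6.86% were lower at an unadjusted p under 0.05.

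Ccnd2, which encodes the G1 cyclin D2, was looked up after its values were seen. It read 10.59, 10.78 and 10.95 in Eed-null arrays, against 8.89, 9.77, 8.82 and 8.22 in Ezh2-null arrays and 9.03 to 9.22 in WT arrays. Every Eed-null array was above every other array, and the 7 probe sets of Ccnd2 differed by 1.77 to 2.46. The kept probe set, at 1.85 (SE 0.30), did not pass (limma, adjusted p = 0.0802), while 2 others passed where each probe set was tested separately (limma, adjusted p = 0.0346 and 0.046). Without Ezh2-null replicate 2, its highest Ezh2-null array, Ccnd2 was at 2.13 and passed (limma, adjusted p = 0.0115).

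**Figure D5:**
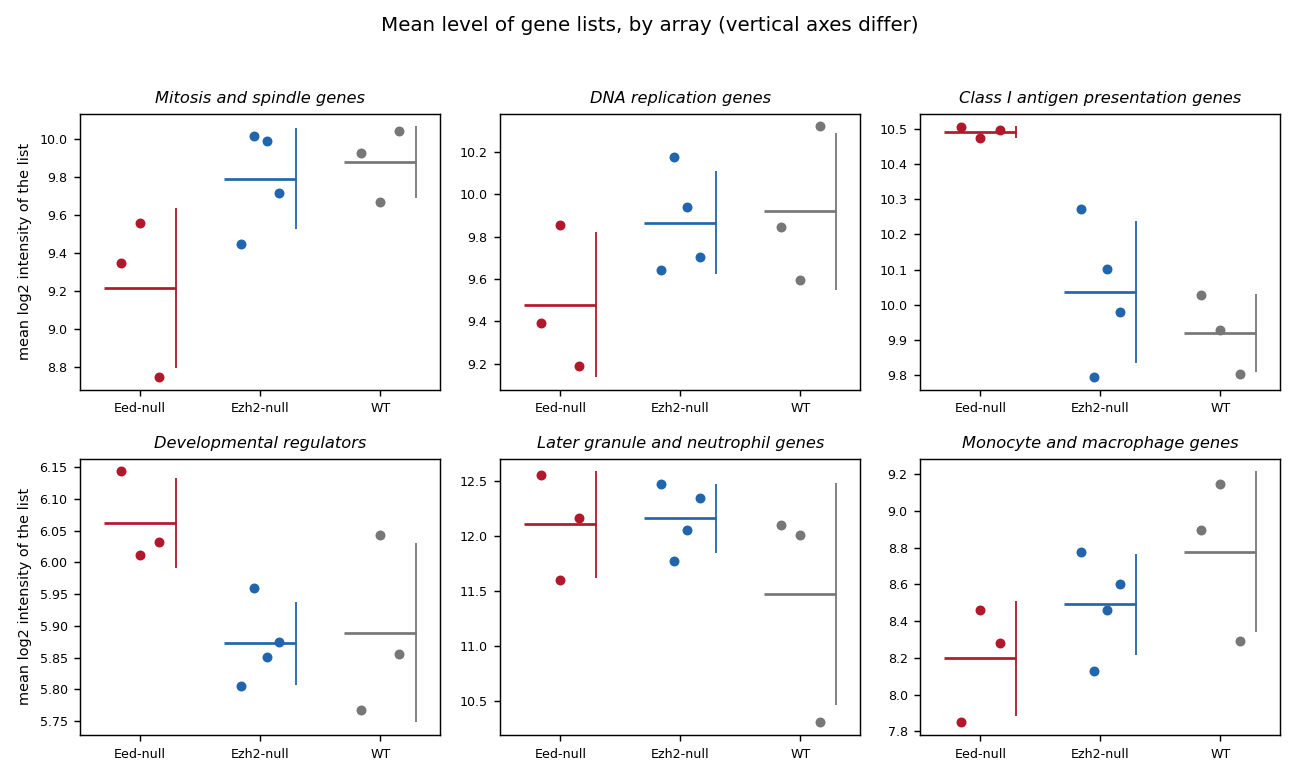
Mean log2 intensity of 6 gene lists by array, with each array as a point, the group mean as a horizontal bar and the SD as a vertical line, for Eed-null (n = 3), Ezh2-null (n = 4) and WT (n = 3) leukaemia, on vertical axes that differ between panels. Class I antigen presentation genes, with H2-Q10, H2-Q7 and H2-Q8 counted in, lie at 10.47 to 10.51 in Eed-null arrays and at 9.79 to 10.27 in Ezh2-null arrays. Mitosis and spindle genes lie at 8.75 to 9.56 in Eed-null arrays and at 9.45 to 10.01 in Ezh2-null arrays.

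Lists of blood cell types held no member that passed. Of 24 measured later granule and neutrophil genes, 8 were positive and 1 was lower at an unadjusted p under 0.05, with a median of -0.04. Mean levels of that list were 12.56, 11.60 and 12.16 in Eed-null arrays, against 12.47, 11.77, 12.06 and 12.34 in Ezh2-null arrays, so the null groups overlapped fully. Of 11 primary granule genes, 5 were positive. Monocyte and macrophage genes had 10 of 28 positive. At an unadjusted p under 0.05, 1 of them was higher and 3 lower, against 5.19% and 3.99% of all genes. The median of the 28 was -0.16, or -0.08 without Eed-null replicate 1 and -0.29 without Ezh2-null replicate 2. Cx3cr1, the fractalkine receptor of resident monocytes, read 6.999, 8.06 and 7.43 in Eed-null arrays, against 9.37, 7.9997, 9.24 and 9.18 in Ezh2-null arrays (difference -1.45, limma, adjusted p = 0.405). Ccr2, the chemokine receptor of inflammatory monocytes, read 5.61, 9.04 and 8.62 in Eed-null arrays, against 9.67, 9.003, 9.51 and 9.67 in Ezh2-null arrays. Eed-null replicate 1 was far below the other Eed-null arrays of Ccr2, the difference was -1.71 (limma, adjusted p = 0.516), and Ezh2-null replicate 2 was the lowest of its group in both genes.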

How the data were processed

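RNA of sorted leukaemic cells was amplified, labelled with biotin and hybridised to 1-colour arrays of 45101 probe sets, per the labels' protocols. The deposited intensity values come from RMA, per the submitters' processing notes, whose version is not given in the sources used here. The scale was linear, 0 values were below 1, and log2 was taken above a floor of 1. Another deposited table paired probe sets with symbols. It holds no Eed-null array and gave names only, and its 9 columns of another series were not used.

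Left out were 64 control probe sets, 5820 with no symbol, 1399 with several and 56 with a symbol turned into a date. Of 37762 others, 31088 symbols were current in RefSeq (GRCm38.p6), 3656 were updated through synonyms and 3018 kept as given. For the 9541 of 20564 genes with several probe sets, the one with the highest mean was kept.

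The fit used R 4.3.3 and limma 3.58.1, with genotype as the only factor, an intensity trend in eBayes, all 10 arrays together and 3.48 prior degrees of freedom. SE and intervals (95%) are moderated, and the code was tested on simulated data. Genes named were Eed, Ezh2, Ezh1, Suz12, Jarid2, Bmi1 and Cdkn2a, the 12 largest rises and falls that passed without overlap, and passing members of lists with up to 3 more of smallest p. Hebp1, Bmpr1a, Tcf24, H2-K1, Trim12c and Prg2 were named besides, after their values were seen. The members and the 31 lists (792 genes) were chosen with earlier results of these data known. Alternatives were another probe set rule, floor, filter, normalization, covariate, block or arrays.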

Additional observations from a re-analysis of the deposited data

Results flagged for a closer look

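A single Ezh2-null array stood apart from the other 3 of its group in 6 of 129 values that were examined for this, and chance gives about 1 such gap in 20 groups. In Ezh2-null replicate 2, Ttll5 read 7.04, below the 7.17 to 7.20 of the other arrays of its group. In the same array the ribosome biogenesis gene Bop1 was high at 9.34, and the monocyte and macrophage genes Cx3cr1 and Cd68 were low at 7.9997 and 9.43. Hoxc9 was low at 7.54 in Ezh2-null replicate 1. The mean level of the Wnt pathway genes was high at 6.92 in Ezh2-null replicate 4. Groups of 3 arrays were not examined in this way.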

How the results depend on the processing

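The 22 alternatives left the direction of every named gene as it was, apart from values that never passed. Penk, Trim12a and Trim30d passed under each alternative that kept them among the genes tested. The 16 calls, 10 higher and 6 lower, became 50 with array weights (35 higher and 15 lower, all 16 among them) and 28 with each gene's probe sets averaged (19 higher, 13 of the 16 among them). With the neutrophil score as a covariate 16 were higher. Leaving out 1 array in turn gave 13 to 36 calls, 7 to 29 higher and 6 to 10 lower. Without Eed-null replicate 1 there were 36 (29 higher) and without Eed-null replicate 3 28 (20 higher), and without Eed-null replicate 2 10 were lower. The labels do not say whether replicate numbers pair the samples. Deviations of same-numbered arrays correlated at 0.03, 0.17 and 0.04, and those of other pairs at -0.24 to 0.15. So few values cannot settle whether the samples were paired. Replicate number 4 occurs only in Ezh2-null, so a block on the replicate number takes that array out of the differences. Pcdh7 was at 2.29 both with the block and without Ezh2-null replicate 4. The block terms also leave fewer degrees of freedom. Without that array and with no block, 13 genes passed. With the replicate number as a block, 4 genes passed, 1 higher and 3 lower. These were Gt(ROSA)26Sor, Trim12a, Trim30d and Penk, with 1567 at an unadjusted p under 0.05 against 1887. A floor of 32 kept 11 of the 16 and ended the calls of Capn11, Ctse, Gt(ROSA)26Sor, Lrmda and Pcdh7. Of these only Gt(ROSA)26Sor had values under the floor. Leaving out genes within 150 genes of Eed or Ezh2, chosen after seeing the data, left 11 calls, 2 of them lower, by its construction. Rises made up 62.5% of the 16 calls, 25% with the block, 80.6% without Eed-null replicate 1 and 81.8% without the 150-gene windows. For the rest the cause was not tested. Low signal limits Capn11, Gt(ROSA)26Sor and Lrmda, which a filter on the lowest 40% of genes removed from the test.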

Other observations

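Other lists held no member that passed (limma). Of 20 measured eosinophil, basophil and mast cell genes, 14 were positive, with a median of 0.06. At an unadjusted p under 0.05, 4 were higher and 1 lower, against 5.19% and 3.99% of all genes. Gata2, a transcription factor of mast cells, basophils and stem cells, read 8.80, 10.02 and 10.11 in Eed-null arrays, against 8.61, 8.62, 8.04 and 7.90 in Ezh2-null arrays and 8.55, 8.19 and 9.95 in WT arrays. Prg2, the major basic protein of eosinophil granules, read 10.58, 10.89 and 9.76 in Eed-null arrays, against 7.22, 7.78, 8.59 and 9.08 in Ezh2-null arrays and 6.10, 6.74 and 10.36 in WT arrays. In both genes WT replicate 3 lay with the Eed-null arrays, and neither passed (limma, adjusted p = 0.439 and 0.495). Ear2, an eosinophil ribonuclease gene, ran the other way, at 6.06, 6.996 and 6.71 in Eed-null arrays, against 8.03, 7.84, 7.68 and 9.14 in Ezh2-null arrays.

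Selp, the platelet and endothelial adhesion receptor P-selectin, read 7.68, 7.58 and 9.20 in Eed-null arrays, against 6.39, 6.09, 5.63 and 6.44 in Ezh2-null arrays, without passing (2.01, limma, adjusted p = 0.143). Retnla, a secreted protein gene known from alternatively activated macrophages and looked up after its values were seen, read 11.64, 9.72 and 11.36 in Eed-null arrays, against 8.03, 8.33, 8.05 and 8.79 in Ezh2-null arrays and 7.58 to 8.21 in WT arrays. Its difference of 2.60 did not pass (limma, adjusted p = 0.0717), and it was at 3.20 and passed without Eed-null replicate 2 (limma, adjusted p = 0.00382). Of 29 measured interferon response genes, 14 were positive, with 3 higher and 2 lower at an unadjusted p under 0.05 and a median of -0.01. The antiviral gene Rsad2 was at 0.77 and did not pass (limma, adjusted p = 0.506). Of 24 p53 target genes, 14 were positive, with 1 higher and 1 lower at an unadjusted p under 0.05.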
